A study of Mus musculus with 2 samples.

Results

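A set of 34 genes of glycolysis and the hypoxia response was followed in single-cell RNA sequencing of mouse ovarian tumors, of 32285 genes in the table. They were chosen by name and not by a rule on their values, though with earlier results of these data known. Of them, 21 act in glucose uptake, glycolysis and lactate export, 12 are other targets of the hypoxia-inducible factors (HIF), and Hif1a is the regulator itself. All 34 were found by symbol. The tumors came from the abraded peritoneal wall of C57BL/6 females aged 6 to 8 weeks that carried syngeneic cancer cells (p53-/-, myc, Hras), grafted into the peritoneal cavity. From the day after, animals were given either a control IgG or an Activin A neutralizing antibody by the same route every day for 10 days, with 7 and 8 mice in the 2 groups per the labels. Activin A is a dimer of the Inhba product and a ligand of the TGFβ family. Tumors were pooled, so each group was 1 library with no replicate, and the antibody cannot be told apart from any other difference between the 2 libraries. No test between libraries was made. Levels are CPM, unique molecular identifiers (UMIs) added up across a cell class and scaled so that every class has the same total, and every interval in the text is an exact 95% interval for counting error only. Such intervals take each UMI as independent and leave out the spread between cells, mice and libraries. They are thus too narrow, most of all where a few cells hold many of a gene's UMIs.

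Glycolysis splits glucose into pyruvate, and lactate dehydrogenase turns pyruvate into lactate when oxygen is short or demand is high. HIF-1, a pair of Hif1a protein and Arnt, is broken down in the presence of oxygen after hydroxylation by the prolyl hydroxylases of the Egln family, and in hypoxia it binds the letters ACGTG or GCGTG near its targets. Those targets include most glycolytic enzymes, and also genes of mitophagy, lipid storage, collagen hydroxylation and vessel signalling. In tumors, cancer cells, activated T cells and macrophages are all known to run glycolysis at a high rate, and Hif1a is held in check mainly at the protein level, which RNA counts do not show.

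Promoters are shown for 4 members that the comparison of the libraries turns on, Pgk1 and Ldha, which were lower in the antibody library, and Hilpda and Ankrd37, which were higher. Each is the RefSeq window of GRCm38.p6 from 250 bases before to 50 bases after a transcript start, read 5′ to 3′ on the strand of the gene, and capitals mark ACGTG and GCGTG on either strand (CACGT and CACGC are their reverse complements). The windows are chrX:106186850-106187149 on the plus strand, chr7:46845554-46845853 on the plus strand, chr6:29272376-29272675 on the plus strand and chr8:45999801-46000100 on the minus strand. Where a gene has several starts, the window with most matches was taken.
Pgk1: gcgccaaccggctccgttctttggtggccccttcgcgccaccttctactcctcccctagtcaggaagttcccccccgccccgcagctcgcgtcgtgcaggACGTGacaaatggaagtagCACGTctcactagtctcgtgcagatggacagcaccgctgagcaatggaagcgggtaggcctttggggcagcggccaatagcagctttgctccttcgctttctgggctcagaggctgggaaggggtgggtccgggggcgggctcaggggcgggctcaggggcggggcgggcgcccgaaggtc
Ldha: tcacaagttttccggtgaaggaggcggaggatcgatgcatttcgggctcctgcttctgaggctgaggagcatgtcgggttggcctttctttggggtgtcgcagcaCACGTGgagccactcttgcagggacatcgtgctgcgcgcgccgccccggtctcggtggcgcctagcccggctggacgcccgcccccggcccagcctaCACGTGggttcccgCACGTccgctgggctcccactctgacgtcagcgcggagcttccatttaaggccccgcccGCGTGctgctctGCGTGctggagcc
Hilpda: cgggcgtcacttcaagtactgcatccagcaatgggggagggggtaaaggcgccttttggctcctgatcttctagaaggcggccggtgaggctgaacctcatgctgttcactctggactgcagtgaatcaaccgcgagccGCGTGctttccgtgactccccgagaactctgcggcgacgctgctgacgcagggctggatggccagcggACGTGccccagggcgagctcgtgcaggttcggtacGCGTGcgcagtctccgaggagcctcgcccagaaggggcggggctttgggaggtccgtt
Ankrd37: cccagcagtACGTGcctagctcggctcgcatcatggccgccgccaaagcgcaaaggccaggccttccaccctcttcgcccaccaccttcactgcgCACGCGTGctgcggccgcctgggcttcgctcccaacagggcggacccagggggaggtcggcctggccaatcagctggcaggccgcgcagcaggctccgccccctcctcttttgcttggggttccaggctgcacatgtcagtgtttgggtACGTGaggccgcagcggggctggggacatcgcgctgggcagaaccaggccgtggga
The Ldha window held 5 matches to ACGTG and 2 to GCGTG, where CACGTG counts as 2 matches because it reads the same on both strands. The Pgk1 window held 2 matches to ACGTG and 0 to GCGTG. The Hilpda window held 1 and 2, and the Ankrd37 window 2 and 2, its GCGTG matches lying on both strands of the shared letters CACGCGTG. A window was listed for 30 of the 34 members (not for Slc2a3, Bnip3l, Ndrg1 and Ndufa4l2). ACGTG stood in a window of 22 of these 30 genes, 13 of 20 glycolytic genes and 8 of 9 other targets, against 21.8% of all 27025 genes with a window. GCGTG stood in 20 of the 30, against 35.2% of all genes. The windows of Tpi1, Gpi1 and Eno2 held neither. These are matches of letters, and no binding was measured.

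After the filter on cells, 8770 cells of the control IgG library (median 5719 UMIs) and 6386 of the antibody library (median 4660) were kept, and they shared 19 barcodes. Cells were sorted into classes by the summed UMIs of marker genes, none of them a member. Each of the 10 classes ranked had most of its own markers in at least 20% of its cells, with the fewest, 5 of 7, in conventional dendritic cells of the control IgG library. By summed UMIs, the largest were T cells (5364 and 4281 cells in the control IgG and antibody libraries), macrophages (1230 and 358), cancer-like cells (350 and 374) and fibroblasts (195 and 208). These 4 carry the comparison of the libraries. Monocytes had more cells than fibroblasts (420 and 270) but fewer UMIs, 2662456 and 1590830 against 3473697 and 2722668. Cells past the mesothelial limit (30 and 22) also had 6 of 7 fibroblast markers in at least 20% of cells, so they are called mesothelial-marker cells. They had 3 and 4 of 5 cancer-like markers at that share too, at 352 and 408 CPM against 5127 and 5128 CPM in cancer-like cells. Cancer-like cells in turn had 5 of 7 fibroblast markers at that share in both libraries. In the control IgG library they also had 4 of 7 T cell and 2 of 6 macrophage markers, against 0 and 0 in the antibody library. Their level was low, at 51.6 and 35.5 CPM for the T cell and 24.3 and 5.43 CPM for the macrophage markers. In macrophages the T cell markers stood at a like 51.8 and 42.0 CPM, with 0 of 7 at that share. Macrophages had 5 and 6 of 6 monocyte markers at that share, at 1870.5 and 2145 CPM against 5292 and 5236 CPM in monocytes. Cancer-like cells were far deeper than the rest, with medians of 56065 and 54604 UMIs against 4828 and 4204 in T cells. Their Trp53 level was 138 and 138 CPM in the 2 libraries. It was 76.4 and 76.0 CPM in T cells, 54.7 and 55.8 CPM in fibroblasts and 43.1 and 34.8 CPM in macrophages. These levels do not check the p53-/- label, since 3′ counts need not fall in a deleted part. Of the UMIs in barcodes with under 100 UMIs, taken as free RNA, the 21 glycolytic genes made up 5633 and 6226 CPM and the 12 other targets 474 and 649 CPM.

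The glycolytic genes were highest in cancer-like cells and macrophages in both libraries, and lowest in B cells. Their summed level was 12278 and 10392 CPM in cancer-like cells (control IgG and antibody library, in that order here and below), with macrophages at 12022 and 9299 CPM. Mesothelial-marker cells followed with 10309.8 and 8798 CPM, monocytes with 9966 and 8277 CPM and fibroblasts with 8394 and 5810.5 CPM. T cells reached 6140.2 and 5037 CPM, NK cells 3967 and 2862 CPM and B cells 2283 and 1988 CPM. In the control IgG library NK and B cells lay under the level in free RNA, and in the antibody library all classes did but cancer-like cells, macrophages, mesothelial-marker cells and monocytes. The order of the 10 classes was the same in both libraries but for the 2 dendritic classes, whose intervals overlapped in each library. Cancer-like cells and macrophages were close in the control IgG library, with intervals that did not overlap, of 12229 to 12327 and 11954 to 12091 CPM. Gapdh supplied 26.7 to 31.6% of the summed UMIs in the 6 classes looked at, so the sum leans on a few genes with many counts at their 3′ ends.

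**Figure D1:**
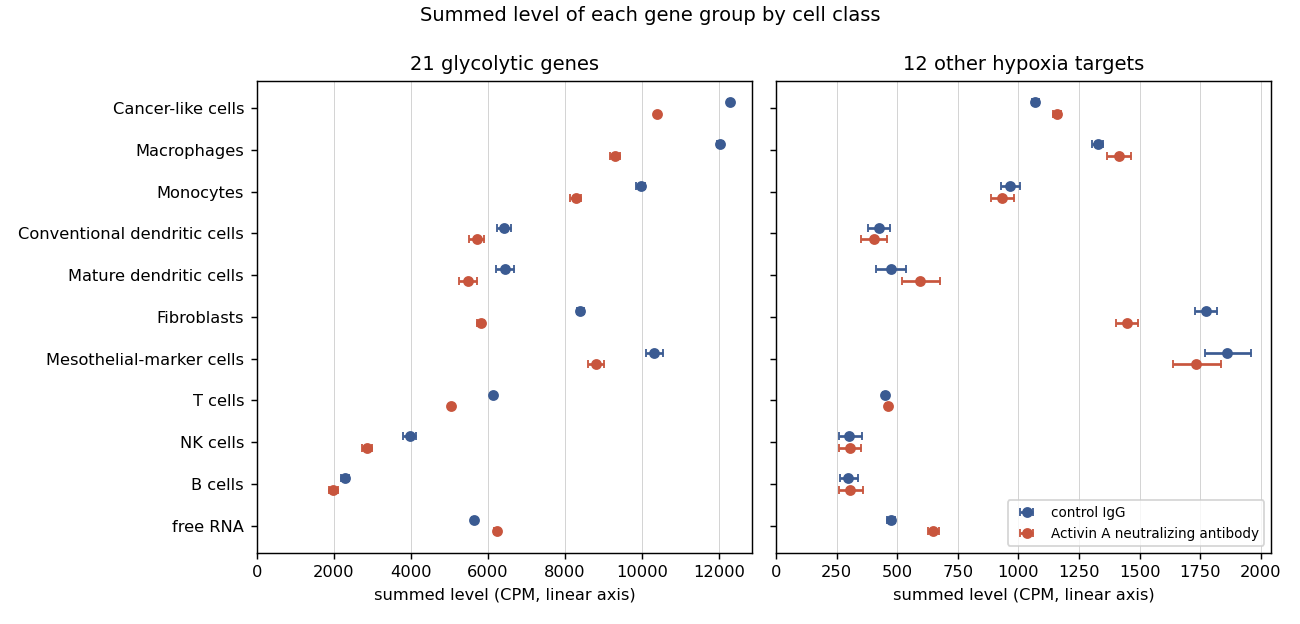
Summed level of the 21 glycolytic genes (left) and the 12 other hypoxia targets (right) in each cell class and in free RNA, in CPM on linear axes that start at 0. Points are the 1 library of each group and bars exact 95% Poisson intervals. Cancer-like cells and macrophages lead on the left, fibroblasts and mesothelial-marker cells on the right, and the control IgG point lies to the right of the antibody point in all 10 classes on the left.

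The early steps of glucose use were split between classes. Slc2a1, the widespread glucose transporter GLUT1, was highest in monocytes (174 and 151 CPM) and macrophages (144 and 138 CPM), whereas Slc2a3, the high-affinity transporter GLUT3, was highest in T cells (93.5 and 101 CPM) and stood at 4.67 and 3.16 CPM in macrophages. T cells, at 55.3 and 44.7 CPM of Slc2a1, were thus the lower for the first transporter and the higher for the second. Hexokinases trap glucose in the cell by phosphorylation. Hk2, the inducible form, was highest in monocytes and macrophages, at 159 and 168 CPM and 139 and 183 CPM, and low in T cells, at 22.4 and 29.7 CPM. Hk1 was spread more evenly, with 68.0 and 83.6 CPM in monocytes and 65.3 and 76.4 CPM in T cells. The subunits of phosphofructokinase, which commits the sugar to glycolysis, also had different leading classes. Pfkp was highest in conventional dendritic cells (339 and 394 CPM). Pfkl was highest in cancer-like cells in the control IgG library and in macrophages in the antibody library, with 109.6 and 89.5 CPM in the first and 103 and 94.5 CPM in the second, and Pfkm was low wherever it could be read, at 9.86 and 12.3 CPM in cancer-like cells, with 11.2 and 13.6 CPM in fibroblasts. Pfkfb3, whose product makes the activator of phosphofructokinase, was highest in mature dendritic cells, at 406 and 358 CPM, with 144 and 113 CPM in monocytes next.

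The enzymes from glucose-6-phosphate isomerase to lactate dehydrogenase formed the bulk of the counts. Pgk1, the first ATP-yielding step, was highest in cancer-like cells (1596 and 1252 CPM), with macrophages next (942 and 741 CPM) and T cells at 439 and 330.3 CPM. Ldha, which makes lactate, was also highest in cancer-like cells, at 1619 and 1351 CPM, and so was Pkm, which yields pyruvate (1296 and 1045 CPM). Cancer-like cells, macrophages and mesothelial-marker cells shared the lead for the rest: Gpi1 and Tpi1 were highest in macrophages, Pgam1 and Eno1 in mesothelial-marker cells, and Aldoa and Gapdh in macrophages in the control IgG library but in cancer-like cells in the antibody library. Aldoc, a brain-type aldolase, was far lower and highest in conventional dendritic cells (39.4 and 43.6 CPM), while cancer-like cells held 3.32 and 1.25 CPM. Eno2 did not reach 50 UMIs over both libraries in any of the 10 classes but fibroblasts (9.50 and 8.81 CPM). At the exit, Slc16a3, the lactate exporter MCT4, was highest in macrophages (262 and 259 CPM) and monocytes (210.3 and 210.0 CPM), against cancer-like cells (63.7 and 60.3 CPM). Pdk1, a kinase that inhibits pyruvate dehydrogenase, was highest in cancer-like cells (83.7 and 95.2 CPM).

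Counted gene by gene, 15 of the 21 glycolytic genes and 11 of the 12 other targets had the same leading class in both libraries. Cancer-like cells led for 4 glycolytic genes and 3 other targets, where they led for 13.3% of the 13969 genes with at least 50 UMIs in each library. Macrophages led for 3 and 2 (3.24% of all genes), monocytes for 2 and 1 (2.76%), and mesothelial-marker cells for 2 and 3 (6.27%). Fibroblasts led for 0 glycolytic genes and 2 other targets, against 8.24% of all genes. Conventional dendritic cells led for 2 glycolytic genes (2.33%), mature dendritic cells for 1 (5.98%) and T cells for 1 (5.4%). B cells and NK cells led for 0 members, where they led for 894 and 1094 of all genes. The 33 genes were chosen together as related genes, so the counts describe them and are no test.

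The other hypoxia targets took a different order, with mesothelial-marker cells and fibroblasts in front. Their summed level was 1861 and 1735 CPM in mesothelial-marker cells and 1773 and 1447 CPM in fibroblasts, then 1327 and 1414 CPM in macrophages, with cancer-like cells at 1070.2 and 1159 CPM and monocytes at 967 and 934 CPM. T cells stood at 449 and 462 CPM, NK cells at 303 and 305 CPM and B cells at 298 and 306 CPM, all under the free RNA. The first 8 places were the same in both libraries. Intervals overlapped between neighbours for mesothelial-marker cells and fibroblasts in the control IgG library, for fibroblasts and macrophages in the antibody library, for T cells and both dendritic classes in the control IgG library, for T cells and conventional dendritic cells, and for conventional dendritic cells and B cells, in the antibody library, and for NK and B cells in both. The largest single share of the fibroblast counts was Ndufa4l2, a mitochondrial protein that lowers complex I activity in hypoxia, with 35.5 and 23.0% of the fibroblast sum. Ndufa4l2 stood at 630.2 and 333 CPM in fibroblasts and 608 and 538 CPM in mesothelial-marker cells, and at 60.8 and 68.2 CPM in cancer-like cells. P4ha1 and P4ha2, the catalytic subunits of collagen prolyl hydroxylase, were also highest in fibroblasts and mesothelial-marker cells. P4ha2 was 155 and 124 CPM in fibroblasts and 18.4 and 19.1 CPM in cancer-like cells. P4ha1 was less restricted, with 247 and 255 CPM in mesothelial-marker cells, 244 and 242 CPM in fibroblasts and 165 and 184 CPM in cancer-like cells.

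Other targets had other leading classes. Hilpda, an inhibitor of the lipase that empties lipid droplets, was highest in macrophages (329.6 and 472 CPM), with monocytes next (196 and 196 CPM) and cancer-like cells at 46.7 and 78.7 CPM. Egln3, a HIF prolyl hydroxylase that is itself a HIF target, was highest in cancer-like cells (198 and 241 CPM against 75.6 and 72.8 CPM in macrophages). Egln1, the main oxygen sensor of the family, was highest in cancer-like cells (138 and 133 CPM), with fibroblasts (134 and 104 CPM) at a like level in the control IgG library but not in the antibody library. Adm, the vessel-relaxing peptide adrenomedullin, was found in fibroblasts (50.4 and 76.4 CPM) and cancer-like cells (42.3 and 60.3 CPM) and at 6.60 and 5.88 CPM in macrophages. Ndrg1 was highest in mesothelial-marker cells (316 and 236 CPM). Of the mitophagy receptors, Bnip3 was highest in macrophages (189.6 and 172 CPM) with 134 and 126 CPM in cancer-like cells, and Bnip3l was highest in mesothelial-marker cells (216 and 204 CPM) with 133 and 128 CPM in T cells. Ankrd37 was highest in monocytes (47.7 and 81.1 CPM), and Ddit4, an inhibitor of mTORC1, in cancer-like cells (69.0 and 56.4 CPM). Hif1a itself was highest in monocytes and macrophages, at 409 and 424 CPM and 388 and 472 CPM, with T cells next at 271 and 335 CPM and cancer-like cells at 182 and 219 CPM.

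Setting each class against all other cells of its library put both gene groups on 1 scale. In fibroblasts the median log2 ratio was -0.08 and -0.37 for the glycolytic genes and 0.65 and 0.67 for the other targets, beside -0.28 and -0.27 for all genes. In T cells it was -0.81 and -0.90 for the glycolytic genes and -1.91 and -1.99 for the other targets, beside -0.09 and -0.08 for all genes. So the 2 groups parted in opposite directions there, with the glycolytic genes under the other targets in fibroblasts and above them in T cells, in both libraries. T cells were not alone in this. The glycolytic median was also the higher by 0.95 and 0.38 in NK cells and by 0.23 and 0.33 in monocytes. It was so by 0.52 and 0.95 in conventional and by 0.55 and 0.33 in mature dendritic cells. In T cells the sum of the other targets lay under that in free RNA, as given above. In cancer-like cells the medians of the 2 full groups did not part, at 0.42 and 0.56 for the glycolytic genes and 0.42 and 0.56 for the other targets. The 9 glycolytic enzymes with many counts, set apart below with their values known, had a median of 0.76 and 1.00 there. They were picked from the glycolytic genes alone, so this median is no contrast of the 2 groups. In macrophages the ratio was 0.52 and 0.29 for the glycolytic genes and 0.33 and 0.25 for the other targets, beside -0.54 and -0.49 for all genes. Of the 21 glycolytic genes, 18 and 15 were higher in macrophages than in the other cells, 14 and 14 in cancer-like cells, 9 and 7 in fibroblasts and 4 and 5 in T cells. Over all genes the same share was 29.8, 43.2, 38.8 and 47.0% in the control IgG library.

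**Figure D2:**
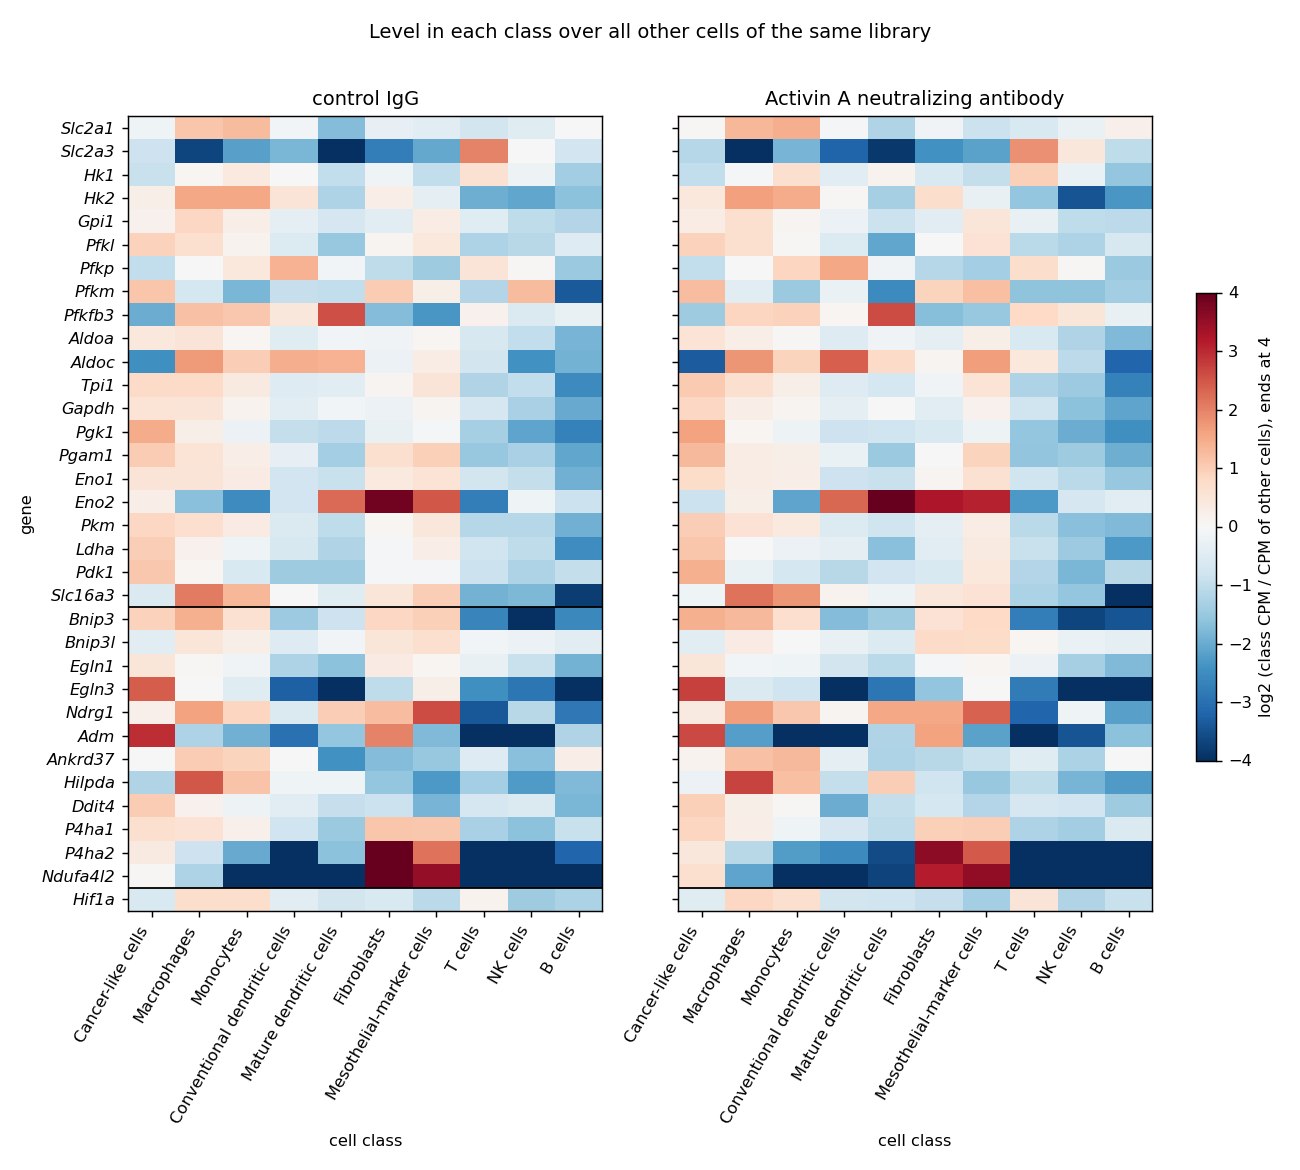
Level of each of the 34 genes (rows) in each of 10 cell classes (columns) over all other cells of the same library, as log2 of the ratio of CPM with 0.5 UMIs added, for the control IgG library (left) and the antibody library (right). Red is higher and blue lower, colours end at 4, and black lines part the glycolytic genes, the other hypoxia targets and Hif1a. The 2 maps share their main features, such as Hilpda in macrophages, Pfkfb3 in mature dendritic cells, Egln3 in cancer-like cells and Ndufa4l2 in fibroblasts.

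Within macrophages, the members moved with Arg1, the arginase that marks a state of tumor macrophages. Cells with at least 5 Arg1 UMIs per 10000 (912 and 233 cells) had a summed glycolytic level of 13611 and 11118 CPM, against 6346 and 5625 CPM in the other macrophages (318 and 125 cells). The 12 other targets parted more, with 1561 and 1823 against 492 and 586 CPM. Of members with at least 50 UMIs, 14 of 18 glycolytic genes were at least 1.5-fold higher in Arg1-high macrophages in each library and 0 that much lower, where 9.14 and 10.5% of all genes were that much higher. Among the other targets the count was 12 of 12 in the control IgG library and 8 of 9 in the antibody library. Hilpda was 409 against 45.5 CPM in the control IgG library, a log2 ratio of 3.17 (2.88 to 3.47), and 634 against 145 CPM in the antibody library, 2.13 (1.84 to 2.43). Pgk1 was 1104 against 363 CPM in the control IgG library and 959.7 against 299 CPM in the antibody library, the widest gap among the enzymes with many counts. On the log2 scale the ratio was 2.19 (1.75 to 2.67) and 2.62 (1.77 to 3.60) for Egln3, 1.87 (1.61 to 2.13) and 2.11 (1.63 to 2.63) for Bnip3 and 1.84 (1.34 to 2.39) and 2.51 (1.47 to 3.76) for Ddit4. Hk2 and Pfkp moved little: Hk2 differed by 0.21 (0.02 to 0.41) and 0.43 (0.11 to 0.76), and Pfkp by -0.03 (-0.22 to 0.16) and 0.51 (0.13 to 0.91). Arg1-high cells were somewhat deeper (medians 8034 and 6182 against 6494 and 5296 UMIs), and the part of depth in these ratios was not tested. Over all genes the median log2 ratio was -0.10 and -0.08.

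**Figure D3:**
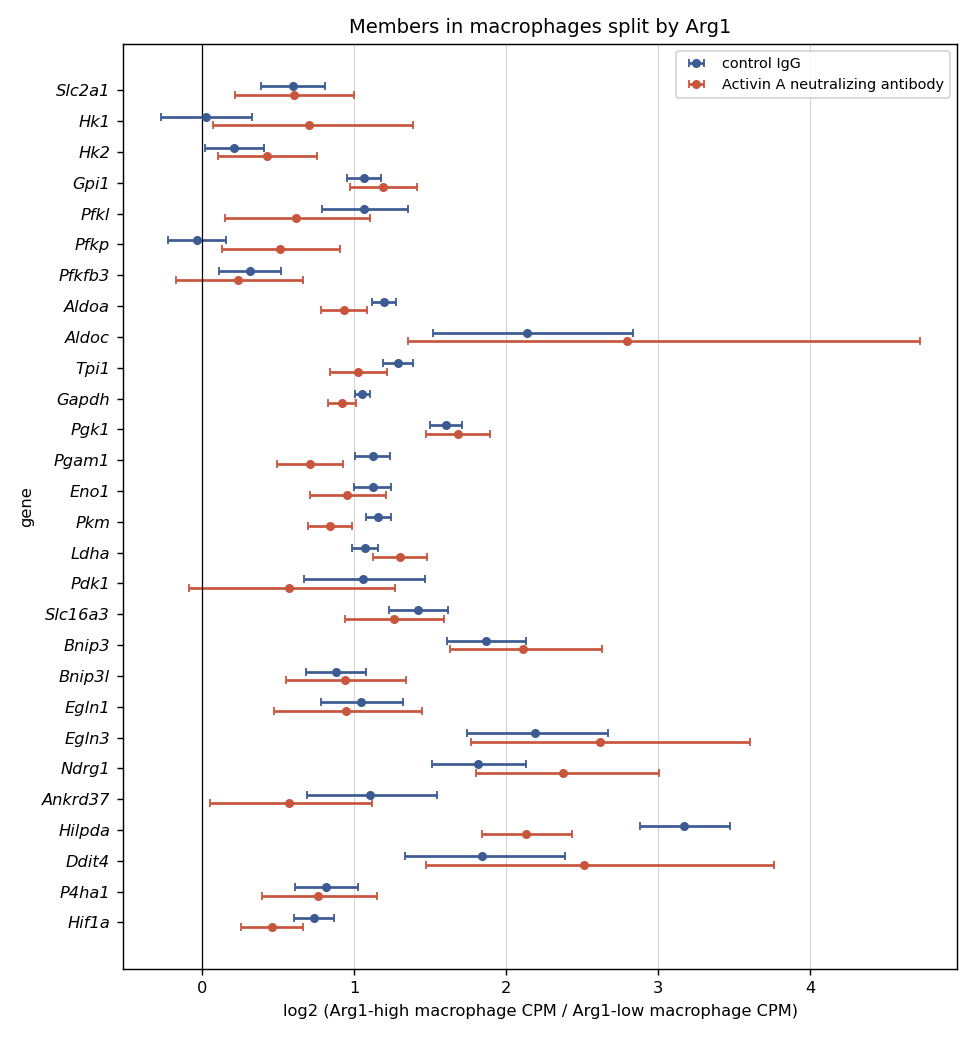
Log2 ratio of CPM in Arg1-high over Arg1-low macrophages for the 28 members with at least 50 UMIs and at least 1 UMI on both sides in each library. Points are the 2 libraries and bars exact 95% conditional binomial intervals. 27 of the 28 genes lie to the right of 0 in both libraries, with Hilpda, Egln3 and Aldoc far to the right.

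Within T cells, most of the main glycolytic enzymes were higher in dividing cells and the sum of the other targets was not. T cells with at least 4 UMIs per 10000 of 7 division genes (1561 and 1010 cells) had a summed glycolytic level of 7223 and 6155 CPM, and those with 0 such UMIs (2878 and 2580 cells) 4629.7 and 3982 CPM. The other targets stood at 416 and 446 CPM in the first and 464 and 460.1 CPM in the second. Tpi1 differed most among the main enzymes, by 1.06 (0.99 to 1.12) and 1.06 (0.97 to 1.15) on the log2 scale, and Ldha by 0.93 (0.88 to 0.97) and 0.93 (0.88 to 0.99). In the other direction, Aldoc was 5.93 against 12.9 CPM in the control IgG library and 6.73 against 11.9 CPM in the antibody library (dividing against not), and Pdk1 differed by -0.87 (-1.05 to -0.68) and -0.78 (-1.03 to -0.55), P4ha1 by -0.65 (-0.78 to -0.51) and -0.57 (-0.73 to -0.41) and Pfkfb3 by -0.59 (-0.72 to -0.47) and -0.47 (-0.61 to -0.32). Dividing T cells were deeper, with medians of 9623 and 7836 against 3842 and 3556 UMIs, and the part of depth was not tested. Between T cells with only Cd4 and only Cd8a or Cd8b1 UMIs, Hif1a was 480.1 and 619 against 203 and 255 CPM, and Egln3 (41.8 and 41.7 against 14.1 and 17.4 CPM) and Hilpda (66.7 and 94.6 against 41.9 and 45.7 CPM) were also higher in the Cd4 cells in both libraries. So were Hk2 (29.4 and 52.9 against 19.7 and 25.1 CPM), Ldha (871 and 717 against 700 and 566 CPM) and Gapdh (2319 and 1876 against 1988 and 1513 CPM). No share over all genes is given for this comparison.

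Between the libraries, the main glycolytic enzymes were lower with the antibody in each of the 4 classes with most UMIs. Across the 9 enzymes from Gpi1 to Ldha with many counts (Gpi1, Aldoa, Tpi1, Gapdh, Pgk1, Pgam1, Eno1, Pkm and Ldha, a grouping made with their values known), the summed level was 11707 and 9817 CPM for cancer-like cells, 10947 and 8246 CPM for macrophages, 7843 and 5307 CPM for fibroblasts and 5545 and 4405 CPM for T cells. The log2 ratio of antibody over control IgG was -0.25 (-0.26 to -0.25) in cancer-like cells, -0.41 (-0.43 to -0.39) in macrophages, -0.56 (-0.59 to -0.53) in fibroblasts and -0.33 (-0.34 to -0.32) in T cells. The median over all genes was -0.05, 0.02, 0.02 and 0.02 in the same classes. Each of the 9 enzymes was lower, with an interval under 0, in all 4 classes, and this held for 9 of 19 glycolytic genes and 0 of 9 other targets with at least 50 UMIs in each class. Of all 7879 genes tested so, 1.94% were lower in all 4. Genes with many counts have narrow intervals. Of genes with at least 100 CPM in each class, 11.4% (78 of 686) were lower in all 4, beside 9 of the 9 glycolytic genes at that level. The count of 9 was 4 when only fibroblasts low in Acta2 and Tagln were used, and 1 when only cells without a UMI of the cell division genes were used, which left 19 and 28 cancer-like cells. The mitochondrial share of UMIs, a sign of RNA and cell quality, was also lower in the antibody library, with medians of 2.30 and 1.99% in cancer-like cells, 2.48 and 2.10% in macrophages, 2.32 and 1.94% in fibroblasts and 3.21 and 2.44% in T cells. Of 13 mt- genes, 10, 9, 6 and 11 had an interval under 0 in these classes, with median ratios of -0.16, -0.12, -0.18 and -0.16. Over all genes the share with such an interval was 25.7, 9.70, 12.4 and 18.3%. Over genes with at least 300 CPM it was 40.1, 37.1, 42.0 and 43.9%. In cells with at most 5% mt- UMIs the ratio of the 9 enzymes was -0.26, -0.41, -0.57 and -0.36. The other 12 glycolytic genes, summed, differed by 0.01 (-0.03 to 0.05) in cancer-like cells, -0.03 (-0.10 to 0.03) in macrophages, -0.13 (-0.23 to -0.03) in fibroblasts and 0.09 (0.06 to 0.12) in T cells.

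Single enzymes kept to this pattern. Tpi1, which interconverts the triose phosphates, was 840.2 and 656 CPM for cancer-like cells, 912 and 666 CPM for macrophages, 625 and 398 CPM for fibroblasts and 330.3 and 245 CPM for T cells, with log2 ratios of -0.36, -0.45, -0.65 and -0.43. Eno1, the enolase, had ratios of -0.31, -0.53, -0.65 and -0.43, and Pgk1 of -0.35, -0.35, -0.54 and -0.41. Gapdh, often taken as a reference gene, went from 3518 to 2576 CPM in macrophages, -0.45 (-0.49 to -0.41), and from 1943 to 1500.2 CPM in T cells, -0.37 (-0.39 to -0.35). Ldha had ratios of -0.26, -0.37, -0.59 and -0.29 in the 4 classes, Aldoa of -0.24, -0.45, -0.50 and -0.27, Pkm of -0.31, -0.30, -0.74 and -0.29, and Pgam1 of -0.26, -0.45, -0.86 and -0.36. Gpi1 had ratios of -0.17, -0.30, -0.25 and -0.11. In monocytes the sum of the 9 enzymes differed by -0.31 (-0.34 to -0.28) and in NK cells by -0.56 (-0.66 to -0.46), while in free RNA it was higher in the antibody library, 0.13 (0.10 to 0.15), with a median of 0.44 over all genes there. Several of these genes have many pseudogenes, and how reads of such copies were counted is not given in the sources used here.

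**Figure D4:**
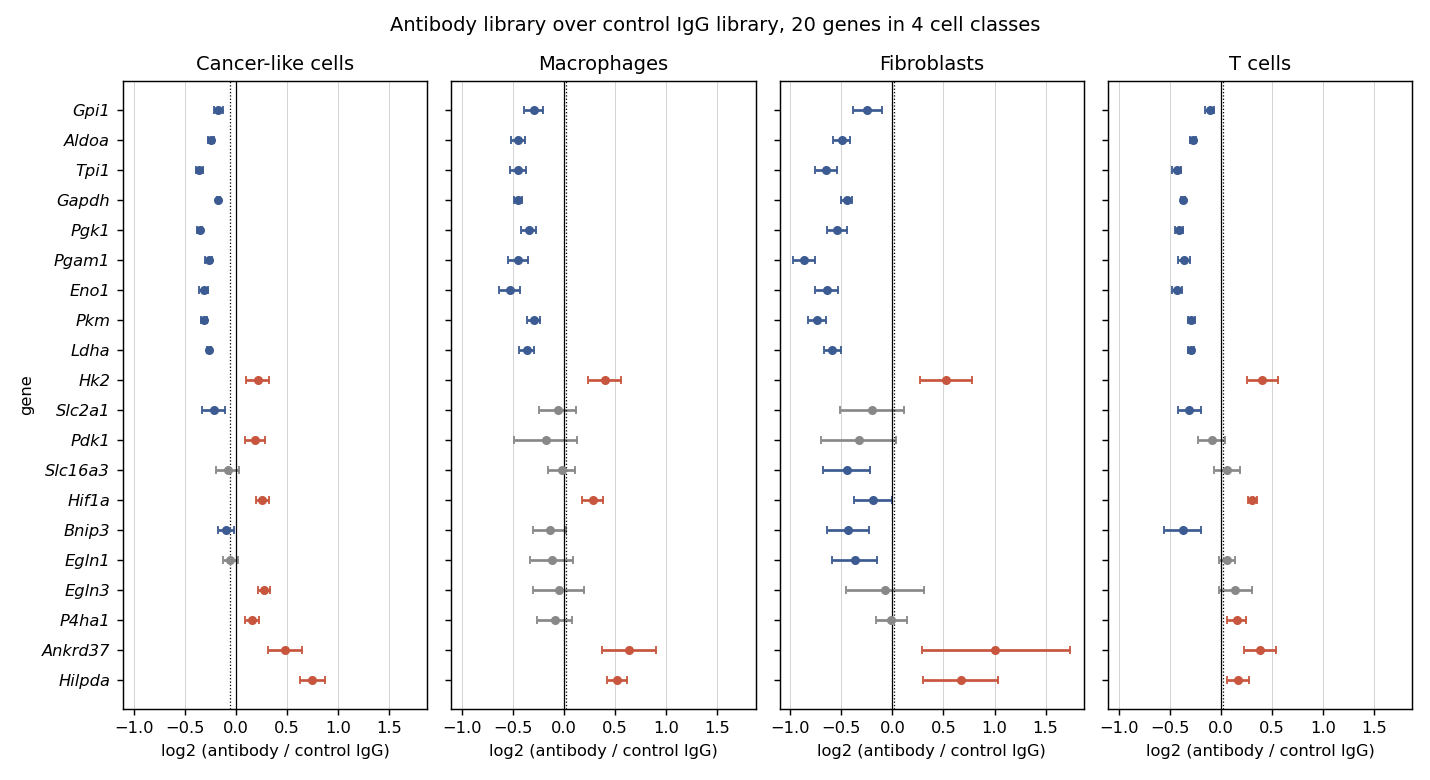
Log2 ratio of CPM in the antibody library over the control IgG library for 20 genes (rows) in 4 cell classes (panels), with exact 95% conditional binomial intervals for counting error only. Blue points have an interval under 0, red points one above 0 and grey points one that holds 0, and the dotted line is the median of all genes. The 9 enzymes at the top are blue in all 4 panels, and Hk2, Ankrd37 and Hilpda are red in all 4, though Hilpda lay under 0 in T cells without a division UMI.

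The gap between libraries was of like size in T cells that divide and that do not. The 9 enzymes differed by -0.26 (-0.28 to -0.25) in dividing T cells and -0.26 (-0.28 to -0.24) in T cells without a division UMI. Both were nearer to 0 than the -0.33 of all T cells, which also hold cells between these limits. The share of dividing T cells was 29.1 and 23.6% in the 2 libraries, and its part in the ratio of all T cells was not tested. In macrophages without a division UMI the ratio was -0.41 (-0.44 to -0.39). In fibroblasts it was -0.87 (-0.92 to -0.82) without a division UMI, and 0.13 (0.08 to 0.18) in the dividing ones, of which there were only 17 and 13. It was nearer to 0 in the few cancer-like cells without one (19 and 28 cells), at -0.10 (-0.15 to -0.05). In NK cells it was -0.13 (-0.30 to 0.03) without a division UMI (97 and 118 cells), and -0.89 (-1.04 to -0.75) in only 12 and 16 dividing cells. Both kinds of macrophage showed the gap in the sum, with -0.33 (-0.35 to -0.30) in Arg1-high and -0.20 (-0.25 to -0.14) in Arg1-low cells. In Arg1-low cells the intervals of Aldoa, Tpi1, Pgam1 and Pkm held 0. Both parts were nearer to 0 than the -0.41 of all macrophages. Arg1-high cells were 912 of 1230 and 233 of 358, and the part of this share was not tested.

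Few members were past 1.5-fold. In cancer-like cells 1 of 20 glycolytic genes was lower by that much, Aldoc at 3.32 and 1.25 CPM, beside 5.42% of all genes, and 1 of 12 other targets was higher, Hilpda, beside 2.98%. In macrophages 0 of 19 glycolytic genes passed, and of 12 other targets Ndufa4l2 was lower (5.49% of all genes) and Ankrd37 higher (6.98%). In T cells 0 of 20 glycolytic genes and 0 of 9 other targets passed in either direction, where 3.36% of all genes were lower and 2.94% higher. In fibroblasts 5 of 21 glycolytic genes were lower by at least 1.5-fold, against 5.8% of all genes. These were Tpi1, Pgam1, Eno1, Pkm and Ldha. Of the other targets there, Ndufa4l2 was lower, and Adm, Ankrd37 and Hilpda were higher (7.58% of all genes). Macrophages had 262 and 27 Ndufa4l2 UMIs, 26.6 and 12.2 CPM, in 49 and 11 cells, and 1 cell held 29.6% of those in the antibody library.

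Hk2, Ankrd37 and Hilpda went the other way from the enzymes and were higher with the antibody, with intervals above 0, in all 4 classes (Hilpda not in T cells without a division UMI), as 1.62% of the 7879 genes were. Hilpda was 46.7 and 78.7 CPM for cancer-like cells, 329.6 and 472 CPM for macrophages, 32.8 and 52.2 CPM for fibroblasts and 48.6 and 54.6 CPM for T cells. Its log2 ratios were 0.75 (0.63 to 0.87), 0.52 (0.42 to 0.62), 0.67 (0.30 to 1.04) and 0.17 (0.06 to 0.27). In the 19 and 28 cancer-like cells without a division UMI the ratio was 2.11 (1.11 to 3.29), and there Ankrd37 differed by 1.41 (0.36 to 2.62) and the sum of the 12 other targets by 0.68 (0.53 to 0.83). In macrophages the ratio for Hilpda was 1.67 (1.26 to 2.08) in Arg1-low cells, from 98 and 106 UMIs, and 0.63 (0.53 to 0.74) in Arg1-high cells. Ankrd37 was 26.3 and 36.8 CPM in cancer-like cells, with 47.6 and 74.1 CPM in macrophages, with log2 ratios of 0.49 (0.32 to 0.65) and 0.64 (0.37 to 0.90), and 0.77 (0.40 to 1.13) in monocytes. Hk2 was higher by 0.21 (0.11 to 0.32) in cancer-like cells, 0.40 (0.24 to 0.56) in macrophages, 0.53 (0.27 to 0.78) in fibroblasts and 0.41 (0.26 to 0.56) in T cells. Outside these 4 classes the rise was not seen throughout. In monocytes the levels of Hilpda and Hk2, given above, were close in the 2 libraries. The ratio of Hilpda was -0.84 in conventional and 1.08 in mature dendritic cells. Hif1a was 388 and 472 CPM in macrophages and 271 and 335 CPM in T cells, with ratios of 0.28 (0.18 to 0.38) and 0.31 (0.26 to 0.35), and its ratio was -0.19 (-0.38 to -0.01) in fibroblasts. Adm was higher in cancer-like cells by 0.51 (0.38 to 0.64) and in fibroblasts by 0.60 (0.30 to 0.90). In T cells without a division UMI the direction for Hilpda flipped, with a log2 ratio of -0.04 (-0.21 to 0.13). Summed, the 12 other targets differed by 0.12 (0.09 to 0.14) in cancer-like cells, 0.09 (0.03 to 0.15) in macrophages, -0.29 (-0.35 to -0.23) in fibroblasts and 0.04 (0.01 to 0.08) in T cells. Taken singly, 3 of 12 in cancer-like cells had an interval under 0 and 6 had one above it. These counts were 2 and 2 of 12 in macrophages, 4 and 3 of 12 in fibroblasts and 2 and 3 of 9 in T cells. Over all genes, in the same order, 25.7, 9.70, 12.4 and 18.3% lay under 0. Above 0 lay 1871 of 12288, 1495 of 9775, 1463 of 9585 and 3235 of 12703.

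Genes of neighbouring pathways, from lists made for the comparison, were read by the same rule of an interval off 0 in all 4 classes. Further hypoxia targets had 0 lower and 1 higher of 12, the higher one being Bhlhe40, a HIF-induced repressor, with 141 and 244 CPM in macrophages and 182 and 275 CPM in T cells. In the same list Ero1l, an endoplasmic reticulum oxidase, was past 1.5-fold in cancer-like cells (206 and 324 CPM) and fibroblasts (94.4 and 233 CPM), and so was Stc2, a secreted glycoprotein, with 0.66 (0.45 to 0.87) and 1.51 (0.87 to 2.17). Vegfa, the vessel growth factor, which is named after its values were seen, was 175 and 250.2 CPM in cancer-like cells, with 243 and 338 CPM in macrophages and ratios of 0.52 (0.46 to 0.58) and 0.48 (0.36 to 0.60). Other genes of this list went the other way in some classes. Mxi1, a Myc antagonist, was 208 and 157 CPM in macrophages, -0.41 (-0.58 to -0.25), and Higd1a, a mitochondrial protein, was 374 and 278 CPM in fibroblasts, -0.43 (-0.56 to -0.30), and 300.4 and 255 CPM in macrophages, -0.23 (-0.37 to -0.10). Both of these are also named after their values were seen. The list medians were 0.23 in cancer-like cells, -0.06 in macrophages, 0.23 in fibroblasts and 0.05 in T cells, and in macrophages 3 of 14 genes had an interval under 0 and 2 above it. Past 1.5-fold, 0 of 16 genes were lower and 2 higher in cancer-like cells, and 1 of 14 lower and 1 higher in macrophages. In fibroblasts 0 of 16 were lower and 3 higher, and in T cells 1 of 15 was lower and 1 higher. The shares of all genes past that fold are those given above for the same classes. The list of pyruvate entry and the TCA cycle had 1 lower and 0 higher of 16, with medians of -0.13, -0.07, -0.13 and -0.20 in the order of classes above, nearer to 0 than the medians of the 9 enzymes (-0.26, -0.45, -0.59 and -0.36). Of its 16 genes, 11 had an interval under 0 in cancer-like cells, 3 in macrophages, 5 in fibroblasts and 11 in T cells. In each of these classes 0 had one above 0. Over all genes the share under 0 was 25.7, 9.70, 12.4 and 18.3%. The pentose phosphate list had 0 lower and 0 higher of 6 and the HIF regulators 0 lower and 0 higher of 6. Among the regulators, Epas1, which codes for HIF-2α, was past 1.5-fold and higher in macrophages (5.18 and 12.7 CPM) and lower in fibroblasts (27.9 and 17.3 CPM). The cell division list had 0 lower and 0 higher of 6, with medians of -0.26 in cancer-like cells, 0.29 in macrophages, -0.37 in fibroblasts and -0.41 in T cells. Its members had an interval under 0 in 6 of 7 cases in cancer-like cells, 0 of 6 in macrophages, 5 of 7 in fibroblasts and 7 of 7 in T cells. Past 1.5-fold, 2 of 6 were higher in macrophages and 2 of 7 lower in fibroblasts, beside 6.98 and 5.8% of all genes. Of the genes of endoplasmic reticulum and amino acid stress, 0 lower and 2 higher of 4 passed the rule, the higher ones being Atf4 and Xbp1. In macrophages 4 of 5 were past 1.5-fold higher, beside 6.98% of all genes. These were Ddit3, Atf4, Hspa5 and Xbp1 (0.96, 0.67, 0.70 and 0.72). Of the other isozymes, 0 lower and 0 higher of 3 passed. In cancer-like cells 4 of 10 were past 1.5-fold lower, beside 5.42% of all genes. These were Eno3, Ldhb, Bpgm and Pdk2 (-0.90, -0.59, -0.59 and -1.20). In macrophages 2 of 8 isozymes were that much lower, beside 5.49% of all genes.

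In fibroblasts, the gap between libraries went with the contractile genes Acta2 and Tagln. Acta2, smooth muscle actin, was 1117 and 201 CPM, and 54 of 195 fibroblasts in the control IgG library but 19 of 208 in the antibody library had at least 4 UMIs per 10000 of the pair. Those cells carried more of both gene groups, with summed glycolytic levels of 12164 and 9916 CPM against 5084 and 4827 CPM in the other fibroblasts, and other targets of 2438 and 2131 against 1189 and 1283 CPM. They were also deeper, with medians of 27874 and 23317 against 10508 and 8069 UMIs. Among the fibroblasts low in Acta2 and Tagln, the 9 enzymes differed between libraries by -0.09 (-0.13 to -0.05), and among the high ones by -0.32 (-0.37 to -0.28), both nearer to 0 than the -0.56 of all fibroblasts. The part that the share of such cells takes in the ratio of all fibroblasts was not tested. Gapdh differed by 0.05 (-0.03 to 0.13) in the low and -0.17 (-0.26 to -0.09) in the high cells, and Pgam1 by -0.38 (-0.53 to -0.23) and -0.59 (-0.76 to -0.42). Ndufa4l2 was 1015 and 542 CPM in the high cells and 292 and 283 CPM in the low cells, so its ratio was -0.91 (-1.09 to -0.72) in the first and -0.04 (-0.21 to 0.13) in the second. Adm had the opposite place, with 84.9 and 84.2 CPM in the low cells and 11.1 and 43.7 CPM in the high ones. Hk2 and Hilpda were higher with the antibody in both parts, by 0.48 (0.16 to 0.81) and 0.72 (0.25 to 1.19) for Hk2 and by 0.51 (0.03 to 1.00) and 1.24 (0.62 to 1.84) for Hilpda. The sum of the 12 other targets, lower in all fibroblasts, was higher in the low part, 0.11 (0.03 to 0.19), and lower in the high part, -0.19 (-0.29 to -0.10). The high part of the antibody library is only 19 cells, and 1 cell held 10.1% of the Gapdh UMIs of its fibroblasts.

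**Figure D5:**
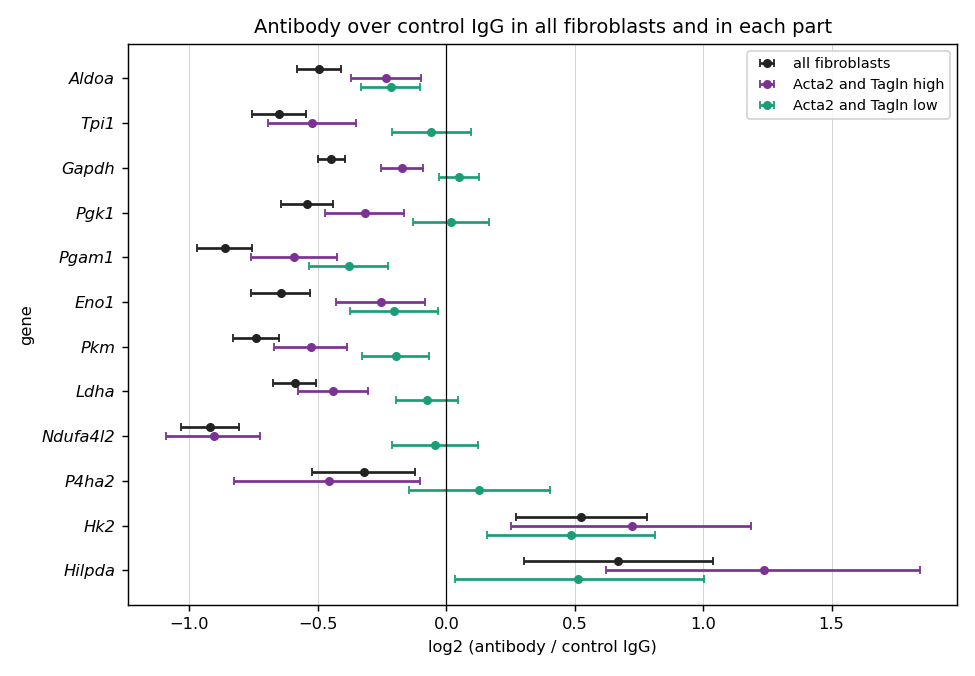
Log2 ratio of antibody over control IgG for 12 members in all fibroblasts (black), in those with at least 4 UMIs per 10000 of Acta2 and Tagln (purple) and in the rest (green), with exact 95% conditional binomial intervals. The black points of the enzymes and Ndufa4l2 lie to the left of the green ones, and those of Hk2 and Hilpda lie to the right of 0 in all 3 sets of cells.

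The small classes are given as values. The 9 and 8 cells past the limit for skeletal muscle markers had a summed glycolytic level of 53337 and 36591 CPM, of which Aldoa made 25419.6 and 18496 CPM, with Acta1 at 58680 and 59758 CPM. The muscle isozymes Eno3 and Pgam2, which are no members, were 7105 and 4187 CPM and 4956 and 3114 CPM in those cells, and Pgam2 was at or under 1.88 CPM in macrophages, monocytes, fibroblasts, T cells and cancer-like cells. Acta1 in free RNA was 675 and 576 CPM. Within cancer-like cells it was 5.06 and 1.59 CPM, and within T cells 12.5 and 8.86 CPM. In macrophages it was 14.4 and 10.4 CPM, with a ratio interval that held 0, and in fibroblasts 9.79 and 4.41 CPM from 34 and 12 UMIs. In cells without a muscle marker UMI, the median log2 ratios of the 9 enzymes were -0.26 (cancer-like cells), -0.43 (macrophages), -0.50 (fibroblasts) and -0.31 (T cells). The part of muscle RNA was not tested. Among NK cells, Tpi1 (294 and 159 CPM), Gapdh (1051 and 698 CPM), Pkm (391 and 220.3 CPM) and Ldha (500.5 and 319 CPM) were lower in the antibody library past 1.5-fold, beside 4.19% of all genes, and Pfkfb3 (46.5 and 84.7 CPM) was higher, beside 6.68%. In mature dendritic cells Hilpda was higher (81.1 and 171 CPM, beside 6.35% of all genes) and Tpi1 (431 and 267 CPM) and Ldha (439 and 273 CPM) lower (beside 8.01%). Monocytes had Aldoc lower (27.8 and 15.7 CPM, beside 5.35% of all genes) and, as above, Ankrd37 higher (beside 6.37%). Mesothelial-marker cells had Slc2a1 (55.8 and 32.0 CPM) and Slc16a3 (171 and 97.4 CPM) lower, beside 8.21% of all genes, and Pdk1 higher (47.1 and 75.1 CPM), beside 7.87%. The neutrophil lineage went against the other classes, with the 9 enzymes at 6071 and 8090.2 CPM and Ldha at 253 and 682 CPM, but it held 17 cells with a median of 2169 UMIs and 0% dividing in the control IgG library and 28 cells with 10860.5 UMIs and 42.9% dividing in the antibody library.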

How the data were processed

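Single-cell RNA sequencing libraries (10x, 3′) of pooled tumors, 1 for each group, were used. Per the labels, the authors made the counts with Cell Ranger 7.0.1 on mm10 (the file headers name version 4), and the deposited values are unscaled whole-number UMI counts for each gene in each barcode, with no filter for cells. Here, barcodes were kept if they had between 1000 and 8500 genes, between 1000 and 100000 UMIs and no more than 10% mt- UMIs, 15156 in all. Cells were classed by the summed UMIs of marker genes per 10000, which left 14073 cells in a class. Those past the limits of several classes or of none were set aside, with these exceptions. Cells past both the fibroblast and the mesothelial limits were taken as mesothelial-marker cells. The limits for NK cells, monocytes and conventional and plasmacytoid dendritic cells were read only in cells past no other limit. A macrophage past the monocyte limit, or a T cell past the NK limit, thus stayed in its class. Ebf1 was not used for B cells because fibroblasts carry it. No doublet caller was run, since cells past several limits were set aside, apart from the exceptions above. The 10x matrices hold 0 other columns of samples.

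CPM was the sum of UMIs over the cells of a class. Levels have exact Poisson intervals and ratios conditional binomial ones (95%), and a gene was called past 1.5-fold from 50 UMIs over both libraries in a class. The code was run on simulated Poisson counts. These follow the model that the intervals assume, so the run does not cover spread between cells, such as UMIs held by a few of them. All 34 members are accounted for, and a member is named with values in a class where it had that many. Differences between libraries are described for members past 1.5-fold whose interval leaves out 0 and, either way, for the enzymes with most UMIs. Some smaller differences, such as those of Hk2, of Hif1a and of Hilpda in T cells, are given outside this rule. Others of like size are not. Of the genes of other lists past 1.5-fold, only some are named. The library totals were 98174850 UMIs (control IgG) and 74117462 UMIs (antibody). Promoter windows came from RefSeq. Ero1a is listed as Ero1l. The members and lists were chosen with earlier results of these data known. Python 3.11.15, numpy 2.4.6, scipy 1.17.1, pandas 2.3.3 and matplotlib 3.10.9 were used. Alternatives were free RNA subtracted at 5 and 10%, other marker limits, equal weight for each cell, at most 5% mt- UMIs, no cells in the top 5% of UMIs, CPM without Gapdh, hemoglobin, mt- and ribosomal genes, 2-fold in place of 1.5-fold and minimums of 20 and 200 UMIs. Of 4 further sets of cells, chosen after the data were seen, 1 each was the middle of the UMI range, cells without division UMIs, cells without skeletal muscle UMIs and fibroblasts low in Acta2 and Tagln.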

Additional observations from a re-analysis of the deposited data

Results flagged for a closer look

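A few members moved in opposite directions between the libraries in different cell classes, and none of these differences was tested, since each group was 1 library. Pfkfb3 had a log2 ratio of antibody over control IgG of 0.87 in NK cells (46.5 and 84.7 CPM) and -0.36 in macrophages (138 and 107 CPM). Hilpda differed by 1.08 in mature dendritic cells and by -0.84 in conventional dendritic cells (81.2 and 45.4 CPM). Ndufa4l2 differed by 0.17 in cancer-like cells (60.8 and 68.2 CPM) and by -1.12 in macrophages, where it had few UMIs. Hif1a differed by 0.49 in B cells (106 and 149 CPM) and by -0.19 in fibroblasts.

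In the barcodes with under 100 UMIs, taken as free RNA, which is in no cell class, 7 of the 34 members were at least 1.5-fold higher in the antibody library. All members but Eno2 had at least 50 UMIs there. The 7 were Slc2a3 (1.09), Hk1 (0.59), Pfkm (0.59), Egln3 (1.02), Adm (1.90), Ankrd37 (0.74) and P4ha2 (0.81), on the log2 scale, beside a median of 0.44 over the 10553 genes tested there. Of those genes 32.6% were that much higher, a larger share than among the members. Gapdh stood at 1618 and 1597 CPM in the free RNA.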

How the results depend on the processing

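Of 524 repeats of a result under another setting, 340 moved by less than the counting interval, 180 moved by more with the same direction, and 4 changed direction. The 4 were the sum of the other hypoxia targets in T cells, -0.004 with free RNA subtracted at 10% and -0.012 in cells without division UMIs, Hilpda in T cells, -0.041 in cells without division UMIs, and the sum of the other hypoxia targets in fibroblasts, 0.11 in fibroblasts low in Acta2 and Tagln. Over the 4 classes with most UMIs, the median log2 ratio of antibody over control IgG was -0.370 for the 9 enzymes and -0.328 for the glycolytic genes. It was -0.416 and -0.369 with free RNA subtracted at 10%, and -0.266 and -0.242 in cells of the middle of the UMI range. In cells without division UMIs it was -0.337 and -0.294, and with fibroblasts low in Acta2 and Tagln -0.293 and -0.263. The count of 9 enzymes lower in all 4 classes was 1 in cells without division UMIs and 4 with fibroblasts low in Acta2 and Tagln. The log2 ratio of the 9 enzymes ranged from -0.282 to -0.100 in cancer-like cells, from -0.442 to -0.314 in macrophages, from -0.870 to -0.091 in fibroblasts and from -0.390 to -0.209 in T cells. Over the 4 classes, 6 calls of glycolytic genes past 1.5-fold lower ranged from 1 to 12 under other settings and 0 calls higher from 0 to 2, while for the other targets 2 calls lower ranged from 1 to 6 and 5 calls higher from 1 to 10. In cancer-like cells, those without division UMIs moved the log2 ratio of Hilpda from 0.75 to 2.11, of Ankrd37 from 0.49 to 1.41, of Ndufa4l2 from 0.17 to 1.56 and of the sum of the other targets from 0.12 to 0.68, which was 0.04, with an interval that holds 0, in cells without skeletal muscle UMIs. The causes were not tested.

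The log2 ratio of cancer-like cells over T cells for the glycolytic genes in the control IgG library, 1.00, was 1.034 and 1.071 with free RNA subtracted at 5 and 10%, 0.982 with marker limits 2 times as high, 1.294 with each cell counted alike, 0.968 at no more than 5% mt- UMIs, 1.124 without the top 5% of UMIs, 1.138 with CPM that leaves out Gapdh, hemoglobin, mt- and ribosomal genes, 1.296 in the middle of the UMI range, 1.437 in cells without division UMIs and 1.061 in cells without skeletal muscle UMIs. The ratio of fibroblasts over T cells for the other targets, 1.982, was 2.039, 2.094, 1.932, 1.659, 1.929, 1.91, 1.517, 1.483 and 1.87 under these settings in the same order but for the mt- limit, 1.927 with marker limits at 0.5 of their level and 1.406 in fibroblasts low in Acta2 and Tagln.

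No paired analysis was possible because there were only 2 libraries, and the labels tie none of their cells to a mouse. With 1 library a group, no setting shows how far libraries of 1 group would differ, and depth limits members with few UMIs, such as Eno2 and Pfkm.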
